A study of Mus musculus with 6 samples.

Results

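The urea cycle turns ammonia into urea. Cps1 makes carbamoyl phosphate in the mitochondrion once N-acetylglutamate, the product of Nags, has activated it, and Otc joins carbamoyl phosphate to ornithine, which Slc25a15 carries in. Ass1 and Asl then build arginine in the cytosol, and arginase (Arg1 in the cytosol, Arg2 in the mitochondrion) splits it into urea and ornithine. The whole cycle runs in liver, Cps1 and Otc are also active in the epithelium of the intestine, and outside these organs Ass1, Asl and Arg2 mostly set how much arginine a cell has for nitric oxide, polyamines and proline.

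These 8 genes were measured by 9 probe sets (groups of array features that report on 1 transcript) of the 28815 on the array, 2 of them for Ass1. Cps1 was chosen by its mutant minus control difference in these same arrays, so its values are given as a description and without a test. The other 7 genes were listed for their role in the cycle.

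Lungs were taken whole from mouse embryos at stage E14.5, and 3 arrays came from control embryos carrying Shh-cre and 3 from embryos of the genotype Shh-cre:Foxp1flox/flox:Foxp4flox/flox, each array from 1 embryo. Both groups carry Shh-cre and are on a mixed background labelled C57BL/6 and 129X1,129S1. Shh-cre recombines in the developing lung epithelium, so the Foxp1 and Foxp4 alleles of other cells in a whole lung stay intact. The question put by the design is how loss of the forkhead transcription factors Foxp1 and Foxp4 alters gene expression as the secretory epithelium forms.

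Values are log2 expression from RMA, a method that corrects background, normalizes between arrays and combines probes. The array medians lay between 8.21 and 8.23, the 25th percentile of all values was 6.60, and precision is limited by having 3 arrays in a group. The lung epithelial factor Nkx2-1 stood at 10.99 to 11.14 in every array. Foxp1 and Foxp4 had mutant minus control differences of -0.27 and -0.41 (SE 0.05 each, limma adjusted p = 0.0884 and 0.0190). These are values of whole lung, from probes whose place relative to the deleted exons was not checked. Control 3 stood apart in that Xist, the X-inactivation transcript, measured 12.83 there and at most 6.23 elsewhere. The Y-linked Ddx3y measured 5.89 in control 3 and 9.45 to 10.64 elsewhere. By these genes control 3 is female and the other arrays are male, so only the control group holds both sexes. Control 3 also stood apart in its liver transcripts, which are given below beside the members they touch.

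Cps1 was lower in every mutant lung than in every control lung. It measured 7.87, 8.17 and 7.97 in controls 1, 2 and 3, and 7.10, 6.97 and 7.22 in mutants 1, 2 and 3. The lowest control lay 0.64 above the highest mutant, while the controls spanned 0.31 and the mutants 0.25. The group means were 8.003 ± 0.16 and 7.10 ± 0.13 (log2, SD, n = 3 each), a difference of -0.91 (SE 0.09) that makes the control level 1.87-fold the mutant level. The authors' deposited table gives the signed fold as -1.87. The difference ranked 20th from the lowest of the 28815 probe sets. In bulk lung, fewer cells with Cps1 and less Cps1 RNA per cell cannot be told apart.

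**Figure D1:**
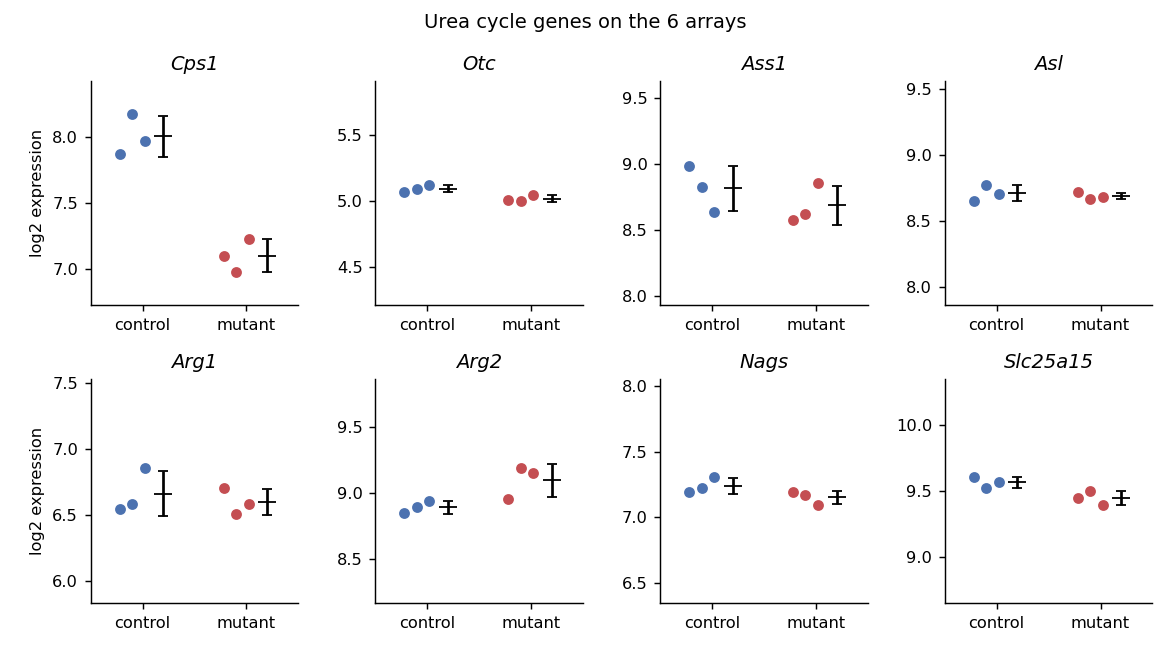
Log2 expression of the 8 urea cycle genes on each array, controls in blue and mutants in red, replicates 1 to 3 from left to right, with the mean and SD (n = 3) in black. Every panel spans the same log2 height, with the brighter of both probe sets shown for Ass1, and Cps1 has a gap of 0.64 between its groups.

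Nags makes the activator that Cps1 needs. It measured 7.19, 7.22 and 7.31 in controls 1, 2 and 3 and 7.19, 7.17 and 7.10 in mutants 1, 2 and 3, and the groups were parted by only 0.0017. The difference was -0.09 (SE 0.05, limma adjusted p = 0.537).

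Otc uses the product of Cps1 in the next step and is X-linked. It measured 5.07, 5.10 and 5.12 in controls 1, 2 and 3 and 5.01, 5.002 and 5.05 in mutants 1, 2 and 3. The mutants lay 0.02 below the controls, but the mean of the probe set was at percentile 8.3 of the array, where little signal is measured. The difference was -0.08 (SE 0.04, limma adjusted p = 0.533).

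Slc25a15, the ornithine carrier of the inner mitochondrial membrane, measured 9.61, 9.52 and 9.57 in controls 1, 2 and 3 and 9.45, 9.50 and 9.40 in mutants 1, 2 and 3. All mutants lay below all controls, by 0.02 at the closest. The difference was -0.12 (SE 0.05, limma adjusted p = 0.408).

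Ass1, which joins citrulline to aspartate, overlapped between the groups on both of its probe sets. The brighter measured 8.98, 8.83 and 8.64 in controls 1, 2 and 3 and 8.58, 8.62 and 8.86 in mutants 1, 2 and 3, a difference of -0.13 (SE 0.10, limma adjusted p = 0.651). The dimmer had a difference of -0.17 (SE 0.11, limma adjusted p = 0.577). Control 3 was the lowest control and mutant 3 the highest mutant on both. Matches of these probes to related copies of the gene were not checked.

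Asl, which splits argininosuccinate into arginine and fumarate, measured 8.65, 8.77 and 8.71 in controls 1, 2 and 3 and 8.72, 8.67 and 8.68 in mutants 1, 2 and 3. The mutants lay within the range of the controls. The difference was -0.02 (SE 0.05, limma adjusted p = 0.887), and it was 0.0097 without control 2.

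The arginases differed from each other in sign. Arg2 measured 8.85, 8.89 and 8.94 in controls 1, 2 and 3 and 8.95, 9.19 and 9.15 in mutants 1, 2 and 3. It was the member with a positive difference, 0.20 (SE 0.07, limma adjusted p = 0.320), though mutant 1 lay only 0.01 above control 3. Arg1 measured 6.54, 6.58 and 6.86 in controls 1, 2 and 3 and 6.71, 6.51 and 6.59 in mutants 1, 2 and 3, with control 3 the highest of the 6 arrays. Its difference was -0.06 (SE 0.09, limma adjusted p = 0.818) and turned to 0.037 without control 3. The difference between Arg1 and Arg2 in response was not tested.

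Of the 7 members other than Cps1, 0 passed limma at an adjusted p under 0.05 and 2, Arg2 and Slc25a15, had an unadjusted p under 0.05. Over the whole array 0.774% of probe sets passed (223, but 7 with the replicate number as a block, 11 without mutant 2 and 1748 with array weights), and 3393 (11.8%) had an unadjusted p under 0.05. Differences were below 0 for 6 of the 7, with a median of -0.08, against -0.02 over all probe sets, of which 41.6% lay above 0. The groups did not overlap for 4 of the 7 (Otc, Nags, Slc25a15 and Arg2), against 18.0% of all probe sets. A 2-sided exact permutation test gave p = 0.1 for each of these 4, and 3 arrays against 3 can give no smaller value.

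The 95% intervals of these differences show what size of change the arrays leave possible. That of Asl ran from -0.13 to 0.09, that of Otc from -0.18 to 0.03 and that of Nags from -0.21 to 0.03. The intervals of Slc25a15 (-0.23 to -0.0045) and Arg2 (0.04 to 0.37) did not reach 0 before adjustment over the array. The widest were those of Ass1, from -0.42 to 0.08 on the dimmer probe set, and Arg1, from -0.27 to 0.15. In the authors' deposited table the q-values of these 7 genes ran from 21.8% to 55.8%.

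**Figure D2:**
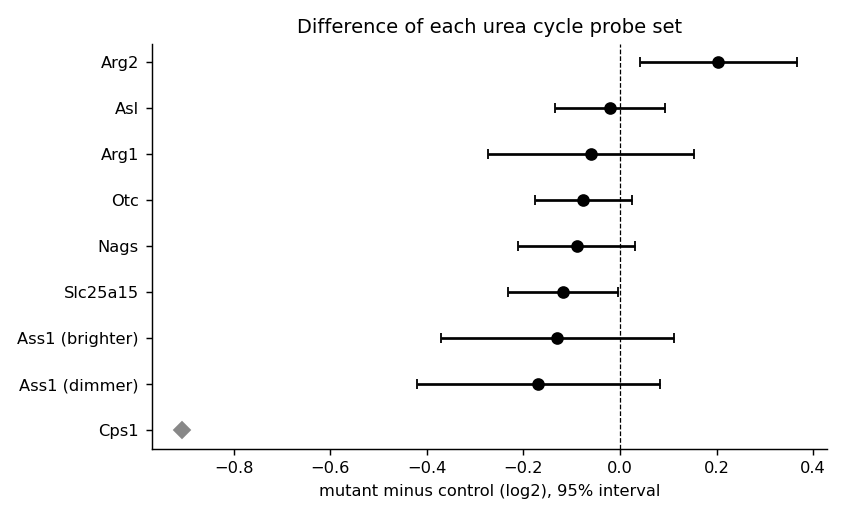
Mutant minus control difference in log2 expression for each urea cycle probe set, with bars for the 95% interval from limma (n = 3 arrays per group). Cps1, a grey diamond without an interval because it was chosen by this difference, lies at -0.91, and the others lie between -0.17 and 0.20.

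Since Cps1, Otc and Arg1 are abundant in hepatocytes, 18 hepatocyte markers were read on the same arrays. Albumin (Alb) measured 10.43 in control 3, against 6.91 in each of controls 1 and 2 and 7.03, 7.71 and 6.98 in mutants 1, 2 and 3. The corticosteroid-binding globulin gene Serpina6 measured 8.35 in control 3 and 5.74 to 5.99 elsewhere. Control 3 was the highest of the 6 arrays for 13 of the 18 markers. The summed signal of the list was 12.26 there and 11.46 to 11.60 in the other 5 arrays (log2 of the sum of linear values). This sum gives most weight to the brightest marker, Alb in control 3 and Trf in the other 5 arrays. Trf went the other way, with its lowest value in control 3 (9.31, against 9.32 to 9.67 elsewhere). Afp, the fetal serum albumin relative, was raised in control 3 (8.01) and in mutant 2 (7.68), against 6.77 to 7.17 in the other arrays. Ttr, Fgg and Cyp2e1 lay below the 25th percentile of values (6.60) on every array.

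Control 3 was the middle of the 3 controls for Cps1, 0.05 below the mean of the other 2, while Alb in control 3 was 3.52 above its own mean in those 2. The Cps1 difference was -0.92 without control 3, close to the -0.91 with it. Arg1 was 0.29 higher in control 3 than in the mean of controls 1 and 2, Nags 0.10, Otc 0.04 and Slc25a15 0.01, while Ass1 was 0.27 lower. The part of liver transcripts in the values of Arg1, Otc, Nags and the other members was not tested. Of the 18 markers 0 passed between the groups (limma, with 5 under 0.05 before adjustment), against 0.774% and 11.8% of all probe sets. Their median difference was -0.17, or -0.05 without control 3.

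**Figure D3:**
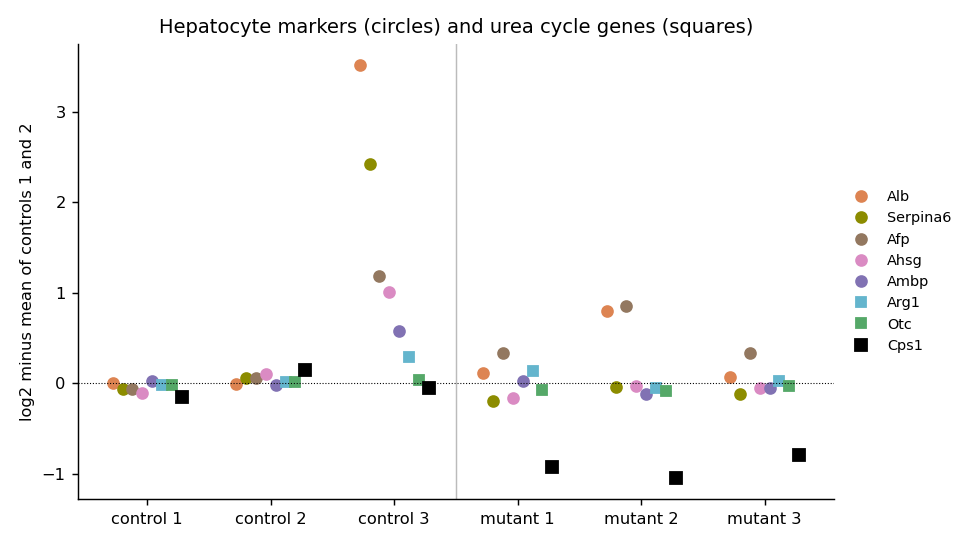
Log2 expression minus the mean of controls 1 and 2, for 5 hepatocyte markers (circles) and for Arg1, Otc and Cps1 (squares) on each array, with a line between the groups. The 5 markers are those of the 18 that stood highest in control 3 over controls 1 and 2. Alb reaches 3.52 and Serpina6 2.42 in control 3, while Cps1 is at -0.05 there and is low in the 3 mutants.

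Other sources of Cps1 or arginase RNA were also read. Beside the counts that follow, 0.774% of all probe sets passed and 11.8% were under 0.05 before adjustment (limma). Of 10 intestinal markers 0 passed (limma, with 1 under 0.05 before adjustment) and 4, Fabp1, Fabp2, Cdh17 and Muc13, lay below 6.60 on every array. Their summed signal was 10.17 to 10.30 in controls and 10.10 to 10.22 in mutants. Of 12 markers of lung epithelium 1 fell, the keratin Krt19 (difference -0.42, limma adjusted p = 0.0382), a call that held without mutant 1 (0.0455) and ended without any other single array (0.0760 to 0.162) and with the replicate block (0.0849). The summed signal of the list was 14.26 to 14.35 in controls and 14.25 to 14.33 in mutants. Epcam and Cdh1, which define epithelium, had differences of -0.08 and -0.07 (limma adjusted p = 0.662 and 0.745). Macrophages can hold Arg1, and of their 10 markers 0 passed (limma, with 1 under 0.05 before adjustment), with summed signals of 12.16 to 12.27 in controls and 12.21 to 12.28 in mutants. Of 7 stomach, 8 endothelial and 8 mesenchymal markers 0 passed (limma, with 0, 0 and 3 under 0.05 before adjustment). The summed signal of the stomach list was 12.77 to 12.85 in controls and 12.51 to 12.71 in mutants, without overlap and lower in mutants. This sum mostly reports Cldn18, whose mean was 12.40, against 8.68 for the next brightest, Gata4. Cldn18 was thus bright in these whole lungs while the other stomach markers were not, so the sum is not a reading of stomach cells. Cldn18 measured 12.42 to 12.58 in controls and 12.15 to 12.40 in mutants, and the groups overlapped for every other stomach marker. The summed signal of the endothelial list was 14.66 to 14.74 in controls and 14.69 to 14.75 in mutants. That of the mesenchymal list was 15.218 to 15.26 and 15.11 to 15.217, again without overlap and lower in mutants. The 3 mesenchymal markers under 0.05 before adjustment were the collagens Col1a1, Col1a2 and Col3a1. Their differences were -0.28, -0.18 and -0.18 (limma adjusted p = 0.294, 0.411 and 0.301). The groups did not overlap for these 3 of the 8, against 18.0% of all probe sets. Differences lay below 0 for all 10 intestinal, all 7 stomach and all 8 mesenchymal markers, with medians of -0.03, -0.12 and -0.03, and for 16827 of all 28815 probe sets. The part of these cell types in the values of the members was not tested.

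Around the cycle, 74 genes in 9 lists cover where its substrates come from and where arginine and ornithine go. Of these, 0 passed (limma, with 8 under 0.05 before adjustment), against 0.774% and 11.8% of all probe sets. Differences were below 0 for 47 of the 74, with a median of -0.03, and the medians of the single lists ran from -0.06 to 0.02. The groups did not overlap for 22 of the 74, against 18.0% of all probe sets.

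Arginine enters cells through cationic carriers, of which Slc7a1 had a difference of -0.15 and Slc7a2 one of -0.13 (limma adjusted p = 0.291 and 0.378). For both, all mutants lay below all controls. A list of 10 genes covers the nitric oxide, creatine and agmatine pathways that start from arginine. Among them, Ddah1 breaks down the methylarginines that inhibit nitric oxide synthase. Ddah1 measured 11.31, 11.25 and 11.27 in controls 1, 2 and 3 and 11.08, 11.09 and 11.06 in mutants 1, 2 and 3. Its groups were parted by 0.16, a wider gap than that of any member other than Cps1. The difference of -0.20 (SE 0.04) had a limma adjusted p of 0.121, which became 0.0391 under a trended robust prior and 0.0261 under array weights. Estimation of these weights stopped before its convergence tolerance. The limma adjusted p was 0.347 with the replicate number as a block, and 0.186 to 0.360 when any single array was left out.

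Gatm, the first enzyme of creatine synthesis, measured 9.98 to 10.06 in controls and 9.22, 9.82 and 9.87 in mutants 1, 2 and 3. Mutant 1 lay well below the other mutants, and the difference was -0.38 (SE 0.16, limma adjusted p = 0.405), or -0.17 without mutant 1. The nitric oxide synthases Nos1, Nos2 and Nos3 had differences of -0.08, -0.01 and 0.04 (limma adjusted p = 0.663, 0.941 and 0.820).

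Ornithine feeds polyamines and proline. The antizyme inhibitor Azin1 and the S-adenosylmethionine decarboxylase Amd1 had differences of -0.10 and -0.12 (limma adjusted p = 0.456 and 0.500). The proline-side enzyme Aldh18a1 was at -0.10 (limma adjusted p = 0.460). None of these 3 passed.

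Ammonia and aspartate supply the nitrogen of urea. Glud1, which releases ammonia from glutamate, had a difference of -0.12, and the glutamine transporter Slc38a3 one of 0.11 (limma adjusted p = 0.431 and 0.463). Mdh1, which turns malate into the oxaloacetate needed for aspartate, was at -0.16 (limma adjusted p = 0.306), with 8 of its list's 9 genes below 0. The mitochondrial aspartate carrier Slc25a12 was at -0.10 (limma adjusted p = 0.527). Cad, whose cytosolic synthetase makes the carbamoyl phosphate for pyrimidines, was at -0.02 (SE 0.07, limma adjusted p = 0.944), with a 95% interval from -0.18 to 0.15. Umps, a later enzyme of that pathway, was at -0.09 (limma adjusted p = 0.535). The mitochondrial carbonic anhydrases Car5a and Car5b, which supply bicarbonate, were at 0.05 and -0.12 (limma adjusted p = 0.694 and 0.644).

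Of 12 liver regulators of urea cycle genes 0 passed (limma, with 2 under 0.05 before adjustment), against 0.774% and 11.8% of all probe sets. The forkhead factor Foxa1, an epithelial regulator in lung too, was at 0.15, and its relative Foxa3 at -0.27 (limma adjusted p = 0.289 and 0.2998). The groups did not overlap for either, as for 18.0% of all probe sets. The mean of Foxa3 was at percentile 30.2 of the array, and its difference was -0.16 without mutant 3. The hepatocyte factor Hnf4a was at -0.10 and Cebpa, a regulator in both liver and lung epithelium, at 0.13 (limma adjusted p = 0.590 and 0.436).

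**Figure D4:**
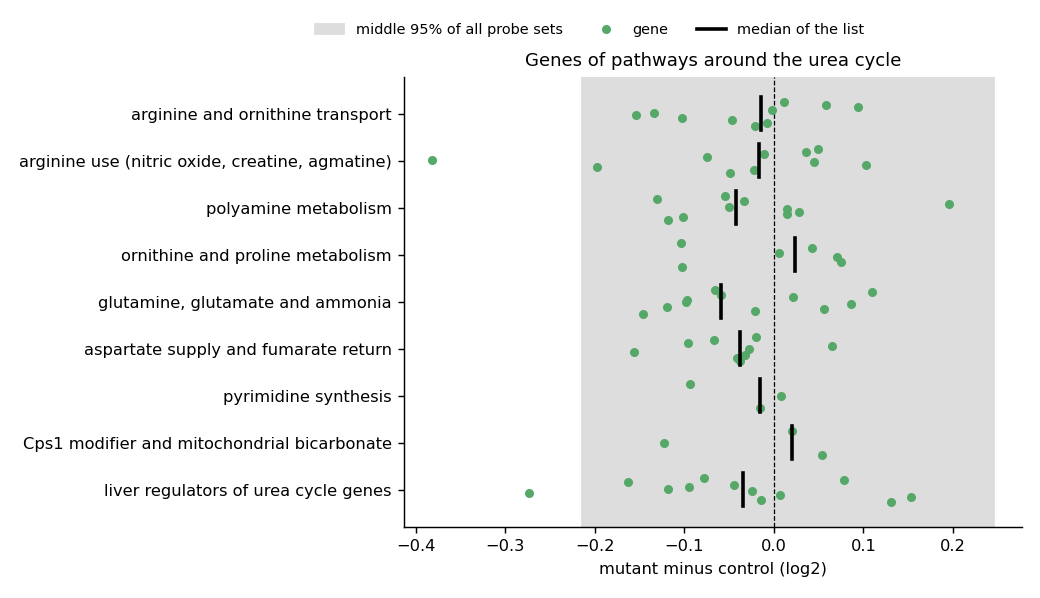
Mutant minus control difference in log2 expression for 74 genes in 9 lists around the urea cycle, a green point per gene and a black bar at the median of each list. The grey band holds the middle 95% of all probe sets, from -0.21 to 0.25, and 2 genes, Gatm and Foxa3, lie outside it.

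The start regions that could be matched differ in how many CG dinucleotides they hold. RefSeq windows of 250 bases before to 50 after a start (GRCm38.p6) were matched for 4 members, Ass1, Otc, Nags and Slc25a15, which has 2 starts, and none were matched for Cps1, Asl, Arg1 and Arg2. The windows of Otc and Ass1 are printed 5′ to 3′, with each CG dinucleotide in capitals, because they show a CG-poor and a CG-rich start for neighbouring steps of the cycle. Otc lies at chrX:10252055-10252354 and Ass1 at chr2:31470020-31470319, both on the plus strand.
Otc: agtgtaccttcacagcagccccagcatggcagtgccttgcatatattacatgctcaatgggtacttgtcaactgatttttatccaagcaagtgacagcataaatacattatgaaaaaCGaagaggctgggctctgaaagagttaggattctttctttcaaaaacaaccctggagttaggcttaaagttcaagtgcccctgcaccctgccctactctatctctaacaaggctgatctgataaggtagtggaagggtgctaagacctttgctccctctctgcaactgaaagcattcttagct
Ass1: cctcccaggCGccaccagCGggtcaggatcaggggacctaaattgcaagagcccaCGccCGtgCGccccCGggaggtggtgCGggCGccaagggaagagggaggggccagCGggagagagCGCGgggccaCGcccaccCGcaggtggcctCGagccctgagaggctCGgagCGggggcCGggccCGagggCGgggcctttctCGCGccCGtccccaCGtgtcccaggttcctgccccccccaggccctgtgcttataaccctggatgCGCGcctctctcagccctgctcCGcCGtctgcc

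The Otc window holds 1 CG and is 44.3% G and C, and the Ass1 window holds 27 and is 74.0% G and C. Nags has 14 CG dinucleotides, and Slc25a15 has 15 in one window and 51 in the other. The median of all 32851 windows is 7. Otc lay below this median, while Ass1, Nags and Slc25a15 lay above it.

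Because the deleted genes encode forkhead factors, the 5 windows were searched on both strands for the forkhead core TGTTTNC, which 20.5% of all windows hold, and 0 of the 5 held it. Searches for the C/EBP-type TTGCNNAA (10.8% of all windows) and for TATAAA (13.6%) found 0 of 5 as well. These letters are not in these windows, and the data hold no measurement of binding.

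Genes whose profile over the 6 arrays lay nearest to that of Cps1 were ranked by the root mean square distance in log2 units, after subtracting each gene's own mean. The nearest was Cpq, a plasma glutamate carboxypeptidase, at 0.11, with 11.08 to 11.21 in controls and 10.31 to 10.39 in mutants. Then came Art4, an ADP-ribosyltransferase family member that carries a blood group antigen in humans (0.15), the sialyltransferase St6gal2 (0.15), the cartilage glycoprotein gene Cnmd (0.18) and the neuronal adhesion gene Cntn4 (0.21). Like Cps1, each had all mutants below all controls, with differences of -0.82, -0.80, -0.68, -0.67 and -0.68. This measure uses the same arrays that Cps1 was chosen on and is a description.

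The other urea cycle genes were not near Cps1 by that measure. The measure is not scaled, so genes with small differences lie far from Cps1 whatever their pattern. The ranks therefore largely restate the size of the differences and cannot show shared regulation. The closest member was the dimmer Ass1 probe set, at 0.40 and rank 2044 of 28814, followed by the brighter Ass1 (0.42, rank 4080), Slc25a15 (0.42, rank 4420), Otc (0.43, rank 5335) and Nags (0.43, rank 5643). Arg1 and Asl were each at 0.45 (ranks 10616 and 10989). Arg2 was among the farthest, at 0.57 and rank 27644.

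**Figure D5:**
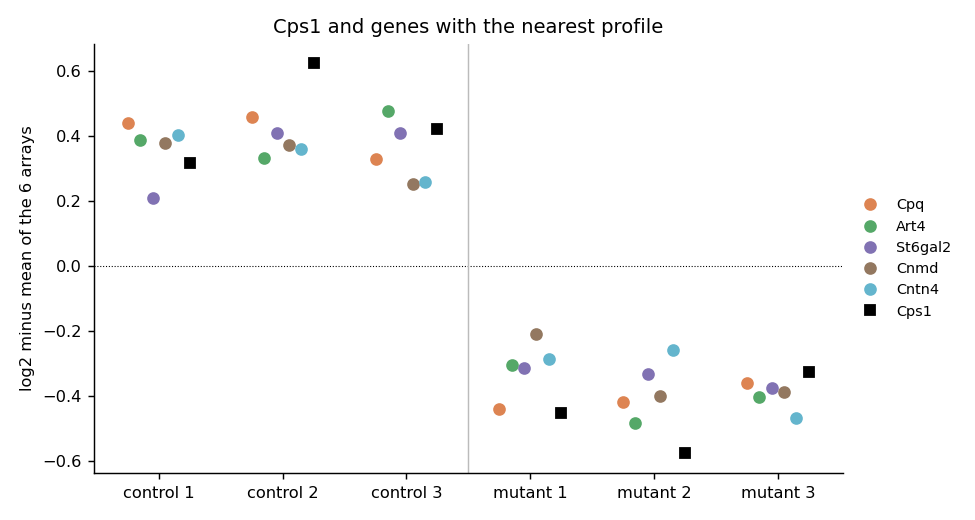
Log2 expression minus the gene's mean over the 6 arrays for Cps1 (black squares) and 5 genes with the nearest profiles (circles), with a line between the groups. All 6 genes are above 0 in the 3 controls and below 0 in the 3 mutants.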

How the data were processed

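Whole lungs were measured on 6 arrays, 3 control and 3 mutant. The deposited log2 values were made by the authors with RMA, per the submitters' processing notes, and these notes name no array type, genome build or annotation. The 6 columns held the same values in the annotated table and in the matrix table for all 28815 probe sets. The authors' deposited comparison holds, per the file headers, a signed fold, a difference score, a q-value (in percent) and a p-value, with no test named.

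Gene symbols are those of the deposited annotation. Of 157 list entries 153 matched by symbol, 2 by RefSeq accession and 2 did not. A gene's probe set with the highest mean stood for it. Differences (mutant minus control) were fitted with limma 3.58.1 in R 4.3.3 through lmFit and eBayes, on all probe sets and without covariates. Its 2-sided p-values were adjusted by Benjamini-Hochberg over the whole array and called under 0.05. The fit was tested on simulated data. The design text gives separate embryos, and p-values reflect the variation among them.

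Members and lists were chosen with earlier results of these data known. Named genes were all members, the genes around the cycle that passed, the 2 with the lowest p in each list, and the 6 profiles nearest to Cps1. Of these, 2 genes are not reported here. Nos1, Nos2, Nos3, Hnf4a, Cebpa and the markers were named after their values were seen. Alternatives were a replicate block, a trended robust prior, leaving out probe sets with a mean below the 30th percentile, quantile and cyclic loess normalization, array weights and leaving out each array. Figures used matplotlib 3.10.9 in Python 3.11.15.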

Additional observations from a re-analysis of the deposited data

How the results depend on the processing

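Under all 12 alternatives 0 of the 7 members other than Cps1 passed the threshold (limma), with Otc and Arg1 not tested under the filter on dim probe sets. The nearest to passing was Arg2 with array weights (limma adjusted p = 0.0502). The Cps1 difference ranged from -1.05 to -0.82. Small differences changed sign in single settings: Arg1 was 0.00131 with array weights and 0.0372 without control 3, Asl 0.00968 without control 2, and Cad 0.0217 without control 3 and 0.0496 without mutant 3, and the cause was not tested. Over the fits that leave out 1 array, Arg1 ran from -0.1195 to 0.0372, Asl from -0.0502 to 0.00968 and Cad from -0.0668 to 0.0496. Of the genes around the cycle, 1 passed with the trended robust prior (Ddah1) and 4 with array weights (Ddah1, Slc7a1, Mdh1 and Foxa1), and 0 in every other setting. Over all probe sets 223 passed, against 1748 with array weights, whose estimation stopped before its convergence tolerance, and 7 with the replicate block. Leaving out 1 array gave 11 to 152 calls, with fewer samples in each fit. Among the controls, dropping number 2 left 18 and number 3 left 102, and among the mutants, dropping number 1 left 136, number 2 left 11 and number 3 left 147. Deviations of same-numbered arrays from their group means correlated at -0.19 to 0.04, which cannot show whether these arrays share a litter or day. With the replicate block the Krt19 call ended (adjusted p = 0.0849), and the members had no call that could end. Dim signal limits what can be seen of Otc (percentile 8.3 of the array) and Arg1 (25.4).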

Other observations

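Cps1 lies on chromosome 1, away from Foxp1 (chromosome 6) and Foxp4 (chromosome 17). Of the 5 measured genes on either side of it in the gene order of GRCm38.p6, 0 of 10 passed (limma, with 4 under 0.05 before adjustment), against 0.774% that passed and 11.8% under 0.05 before adjustment over all probe sets. The largest of these differences, -0.60, was that of the predicted gene Gm8840 (limma adjusted p = 0.398, control SD 0.52), with the sign of Cps1 and overlapping groups. The adjacent Lancl1, a glutathione-binding protein gene, had a difference of -0.09 (limma adjusted p = 0.477). On the other side Erbb4, a receptor of the epidermal growth factor receptor family, measured 8.17 ± 0.11 in controls and 8.54 ± 0.10 in mutants (log2, SD, n = 3 each), a difference of 0.37 (limma adjusted p = 0.0946), opposite in sign to that of Cps1. The muscle myosin light chain gene Myl1 was at -0.56 (limma adjusted p = 0.312), with a control SD of 0.40. These genes were looked at after the members' values were seen.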
